A study of Mus musculus with 12 samples.

Results

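Genes of the inflammasome and of pyroptosis were followed in the livers of female mice that overexpressed the microRNA gene Mir483. They were chosen by name as 10 of the 55401 rows of the gene count table: the sensors Nlrp3, Nlrc4 and Aim2, the adaptor Pycard, the caspase genes Casp1, Casp4 and Casp8, the gasdermin genes Gsdmd and Gsdme, and the cytokine gene Il18. All 10 identifiers were matched to their symbols and all 10 passed the filter on low counts, so no member is missing from what follows. Livers of 6 iTgMir483 mice and 6 Control littermates, all female and 15 weeks old on a C57BL/6J background, were compared by RNA-seq. The iTgMir483 mice carry 1 copy of a Mir483 transgene at the ubiquitously active Rosa26 locus under a Tet-off switch, which doxycycline silences. By the study's description of this post-natal cohort, dams drank doxycycline during gestation and it was stopped afterwards, so both groups were exposed to it before birth and the transgene was released after that. The transgene is therefore not restricted to hepatocytes, and the cross described for the line used dams homozygous for CMV-Cre, so that a Cre allele was expected in the controls too. In whole-liver RNA, fewer cells of a type and less RNA per cell cannot be told apart.

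Inflammasomes are cytosolic complexes in which a sensor of microbial products or of cell damage recruits the adaptor ASC, the product of Pycard, and through it the protease caspase-1. Caspase-1 matures the cytokines IL-1β and IL-18 and cuts gasdermin D, whose freed end opens pores in the plasma membrane, and the lytic death that follows is called pyroptosis. In the liver the pathway is known mainly from Kupffer cells, the resident macrophages, and from infiltrating myeloid cells, and NLRP3 is widely studied in fatty liver disease. Cleavage, assembly and secretion, which switch the pathway on, are not seen by RNA-seq, so the values here are transcript levels only.

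Mir483 itself served as a check of the group labels. It had 0 counts in all 6 Control libraries and between 318 and 761 counts in the 6 iTgMir483 libraries (37.1 ± 13.1 CPM, SD, n = 6). A CPM is a count scaled to a library of 1000000 reads after TMM scaling of library sizes. These are reads of transcripts kept by a poly(A) protocol and do not measure the mature microRNAs. Library totals ranged from 12244123 to 30431286 counts in Control and from 12415140 to 15846175 in iTgMir483. Among the marker lists, 6 of 7 Kupffer cell genes were higher in iTgMir483, and the defining hepatocyte genes were abundant in every library. P-values set the difference between the groups against the spread between livers within a group.

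The mature products of Mir483 are shown because their seed, bases 2 to 8, sets which transcripts could pair with them. They were read from RefSeq on GRCm38.p6, from the minus strand at chr7:142654932-142654952 for the 3p arm and at chr7:142654968-142654989 for the 5p arm, with the seed in capitals.
miR-483-3p: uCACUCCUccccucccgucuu
miR-483-5p: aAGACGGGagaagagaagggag
The DNA letters that pair with these seeds are AGGAGTG for the 3p arm and CCCGTCT for the 5p arm. Among tested genes with an annotated 3′ untranslated region (UTR), the 3p match was present in 1523 of 12098 (12.6%) and the 5p match in 394 (3.26%). Of the 10 members, 1 held a 3p match and 0 held a 5p match. The member was Aim2, with the match at chr1:173465591-173465597 on the plus strand of GRCm38, at position 573 of a UTR of 1022 bases. It is shown with its flanks, the match in capitals.
Aim2 site: ggccaggcagcAGGAGTGgatgtgggtgg
The other 9 members, among them the 4 that rose, had no such letters in the UTR searched, which describes these windows and not the action of the microRNA.

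Promoters were searched on both strands for motifs of immune regulators, in RefSeq windows of 250 bases before to 50 after each start site. RefSeq entries were matched for 9 members with 11 promoters, and Gsdmd was not matched. The PU.1 letters GAGGAAGT, the binding motif of a macrophage lineage factor, occur in 3.2% of the 32851 promoters of the table and were found in Aim2, at chr1:173420491-173420498, and in Pycard, at chr7:127993904-127993911. The RefSeq start of Aim2 used here lies inside the longer GENCODE span of the gene. The NF-kB motif, which marks targets of the factor that primes Nlrp3 transcription, occurs in 4.51% of promoters and was found in Casp4, at chr9:5308756-5308765, and in 1 of 2 promoters of Nlrp3, at chr11:59541383-59541392. In Casp4 a further NF-kB match overlapped the one shown by all bases but 1, so they are a single stretch. Each window is read along its gene, with the motif in capitals. The PU.1 letters in Pycard and the NF-kB match in Nlrp3 lie on the other strand and appear as their reverse complement.
Aim2 promoter: aaccttattgGAGGAAGTgggtcactga
Pycard promoter: tccccaccccACTTCCTCcaccaaccca
Casp4 promoter: atgagttacaGGGGATTTCCccacagcagt
Nlrp3 promoter: ggcttctgcaGGGAACCCCCgggaattctg
The interferon-linked motifs GAS (TTCNNNGAA, in 8.3% of promoters) and the ISRE core (in 3.44%) were in 0 of the 9 members. A motif was thus present in Nlrp3 and Pycard, which rose, and in Aim2 and Casp4, which did not pass the test.

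The members with higher transcript levels in iTgMir483 were Nlrp3, Nlrc4, Pycard and Gsdmd, and none was lower. A gene was called at a Benjamini-Hochberg adjusted p under 0.05 over all 13205 genes tested (edgeR quasi-likelihood F-test) and a fold change over 1.5. By this rule 11.1% of tested genes were called in either direction, 8.41% were higher and 2.73% were lower. Of the members, 4 of 10 were higher, which is 40% against that background of 8.41%, and 0 were lower. The 7 members under 5 CPM share their range of Control means, 0.678 to 2.62 CPM, with 2187 tested genes, of which 17.2% were called higher, beside 3 of these 7. The median log2 fold change of the 10 members was 0.64 and that of all tested genes 0.0058. A value above 0 was found for 9 of 10 members and for 6705 of the 13205 tested genes. The study itself named pyroptosis from an enrichment in these libraries and the members were listed with earlier results known, so the count is no independent evidence of a direction. When the fold itself was tested against 1.5, 0 of the 4 passed, and with no filter on low counts Nlrc4 (adjusted p = 0.0522) and Pycard (0.0919) did not.

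**Figure D1:**
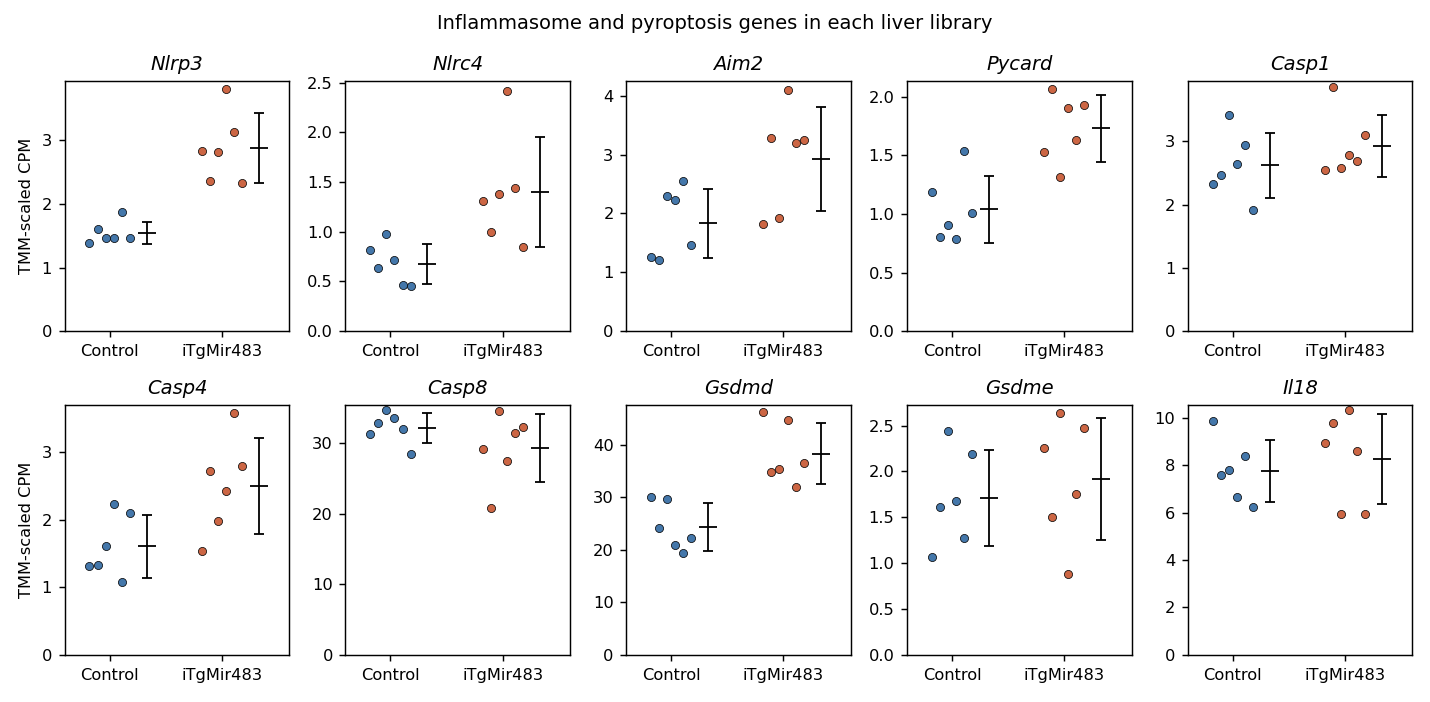
Level of each of the 10 genes in CPM scaled by TMM (vertical axes, each from 0) in the 6 Control (blue) and 6 iTgMir483 (orange) libraries, 1 point per library, with the mean and SD beside the points. The groups are apart for Nlrp3 and Gsdmd, overlap in part for Nlrc4, Pycard, Aim2 and Casp4, and overlap widely for Casp1, Casp8, Gsdme and Il18.

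Among the sensors, Nlrp3 separated the groups. Nlrp3 (ENSMUSG00000032691, chr11:59541568-59566956, plus strand) encodes the sensor of potassium efflux, crystals and other signs of cell damage. Its level had a lowest, median and highest value of 1.38, 1.47 and 1.88 CPM in Control and of 2.32, 2.83 and 3.81 CPM in iTgMir483. Every iTgMir483 liver was above every Control liver, as in 5.09% of tested genes. Nlrp3 rose 1.86-fold (95% interval 1.45 to 2.40, log2 fold change 0.90 with SE 0.17, adjusted p = 0.00335). The counts behind these values were small, from 16 to 52 reads per library.

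Nlrc4 (ENSMUSG00000039193, chr17:74425438-74459142, minus strand) encodes the partner of the NAIP receptors for bacterial flagellin and secretion system proteins. Its level was 0.457, 0.675 and 0.976 CPM at the lowest, median and highest Control and 0.851, 1.34 and 2.42 CPM in iTgMir483. The highest value was that of replicate 4, and 5 of 6 iTgMir483 livers lay above all controls, with replicate 6 inside their range. Nlrc4 rose 2.03-fold (1.33 to 3.10, log2 fold change 1.02 with SE 0.29, adjusted p = 0.0228), and this was the largest fold among the members. It rested on 5 to 33 reads per library, and without Control replicate 5 the adjusted p was 0.0505.

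Aim2 (ENSMUSG00000037860, chr1:173350879-173466040, plus strand) encodes a receptor for double-stranded DNA in the cytosol. Its values were 1.21, 1.84 and 2.54 CPM in Control and 1.82, 3.22 and 4.10 CPM in iTgMir483. Replicates 1 and 3 of iTgMir483 stood among the controls at 1.82 and 1.92 CPM, and the remaining 4 stood above them all. The fold of 1.58 (1.08 to 2.32, log2 fold change 0.66 with SE 0.26) did not pass at an adjusted p of 0.0851. Without iTgMir483 replicate 1 it did, at 0.0467.

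Pycard (ENSMUSG00000030793, chr7:127989708-127993867, minus strand) encodes ASC, the adaptor that links the sensors to caspase-1. It had 0.786, 0.956 and 1.54 CPM in Control and 1.32, 1.77 and 2.07 CPM in iTgMir483. In iTgMir483, 4 of 6 livers were above all controls, and the highest control, replicate 5, lay above replicates 1 and 3 of iTgMir483. Pycard rose 1.67-fold (1.21 to 2.31, log2 fold change 0.74 with SE 0.22, adjusted p = 0.0287). This was the least stable of the calls: it was made in 5 of the 12 fits that left out 1 library, and the adjusted p in the other 7, those without Control replicates 2, 3, 4 or 6 or without iTgMir483 replicates 2, 4 or 6, was between 0.0523 and 0.0788.

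None of the 3 caspase genes passed the test. Casp1 (ENSMUSG00000025888, chr9:5298517-5307265, plus strand) encodes the protease at the centre of the canonical inflammasome. Its values were 1.92, 2.55 and 3.42 CPM in Control and 2.55, 2.74 and 3.85 CPM in iTgMir483, with 1 of 6 iTgMir483 livers above all controls. Casp1 did not pass (1.11-fold, 0.86 to 1.44, log2 fold change 0.15 with SE 0.17, adjusted p = 0.570), and its interval leaves out a fold of 1.5 in either direction.

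Casp4 (ENSMUSG00000033538, chr9:5308828-5336783, plus strand), often called caspase-11 in mice, encodes the protease of the non-canonical route that binds bacterial lipopolysaccharide and cuts gasdermin D directly. It starts 1562 bases from the end of Casp1 and is its paralog, and how the authors' counting treated reads that fit both is not given in the sources used here. Casp4 had 1.07, 1.46 and 2.22 CPM in Control and 1.53, 2.57 and 3.57 CPM in iTgMir483. In iTgMir483, 4 of 6 livers were above all controls and replicates 1 and 3 lay within the Control range. The fold of 1.55 (1.08 to 2.21, log2 fold change 0.63 with SE 0.24) did not pass at an adjusted p of 0.0815, and passed at 0.0391 without iTgMir483 replicate 1, without which Aim2 passed too.

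Casp8 (ENSMUSG00000026029, chr1:58795374-58847503, plus strand) encodes the initiator caspase of death receptors, which restrains necroptosis and can also cut gasdermin D. With 291 to 981 reads per library it was measured precisely. Its values were 28.5, 32.5 and 34.8 CPM in Control and 20.8, 30.4 and 34.5 CPM in iTgMir483. The groups overlapped apart from replicate 2 of iTgMir483, the lowest of the 12 at 20.8 CPM, and replicate 4, also below all controls at 27.5 CPM. Casp8 did not pass (0.91-fold, 0.77 to 1.07, log2 fold change -0.14 with SE 0.11, adjusted p = 0.413).

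Of the gasdermins, Gsdmd rose and Gsdme did not pass. Gsdmd (ENSMUSG00000022575, chr15:75862327-75867408, plus strand) encodes gasdermin D, the pore former that inflammatory caspases release. Its values were 19.4, 23.2 and 30.0 CPM in Control and 31.9, 36.0 and 46.3 CPM in iTgMir483. All 6 iTgMir483 livers were above all controls, with replicates 1 and 4 the highest at 46.3 and 44.7 CPM. Gsdmd rose 1.57-fold (1.29 to 1.91, log2 fold change 0.65 with SE 0.13, adjusted p = 0.00461), on 243 to 636 reads per library. It had the most reads of the 4 members that rose, and about as many in all, 5773, as Casp8 with 5908, for which the interval of the fold does not reach that of Gsdmd.

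Gsdme (ENSMUSG00000029821, chr6:50188888-50263862, minus strand) encodes gasdermin E, which caspase-3 cuts and which can turn apoptosis into lytic death. Its values spread as widely within each group as between them, with 1.07, 1.64 and 2.44 CPM in Control and 0.879, 2.0 and 2.64 CPM in iTgMir483. The lowest of the 12 was replicate 4 of iTgMir483, the library that was highest for Nlrp3, Nlrc4, Aim2 and Il18. The fold of 1.13 (0.75 to 1.70, log2 fold change 0.18 with SE 0.27, adjusted p = 0.691) does not exclude a rise of over 1.5-fold at this depth. Gsdme shares its locus with Mpp6 on the other strand, which had 10825 reads in all against 340 for Gsdme.

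Il18 (ENSMUSG00000039217, chr9:50554827-50581840, plus strand) encodes the precursor of IL-18, which unlike IL-1β is made without priming in many cells. Its values were 6.22, 7.70 and 9.85 CPM in Control and 5.94, 8.77 and 10.3 CPM in iTgMir483. In iTgMir483 4 livers were between 8.58 and 10.3 CPM and replicates 3 and 6 were below all controls at 5.94 and 5.96 CPM. Il18 did not pass (1.06-fold, 0.83 to 1.36, log2 fold change 0.09 with SE 0.16, adjusted p = 0.743), and its interval leaves out a fold of 1.5.

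Leaving out 1 library at a time sorted the calls. Nlrp3 was called in 12 of 12 such fits, with adjusted p from 0.00358 to 0.0113, and Gsdmd in 12 of 12, from 0.00292 to 0.0145. Nlrc4 was called in 11 of 12 and Pycard in 5 of 12. Aim2 and Casp4 were each called in 1 of 12, and Casp1, Casp8, Gsdme and Il18 in 0 of 12.

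**Figure D2:**
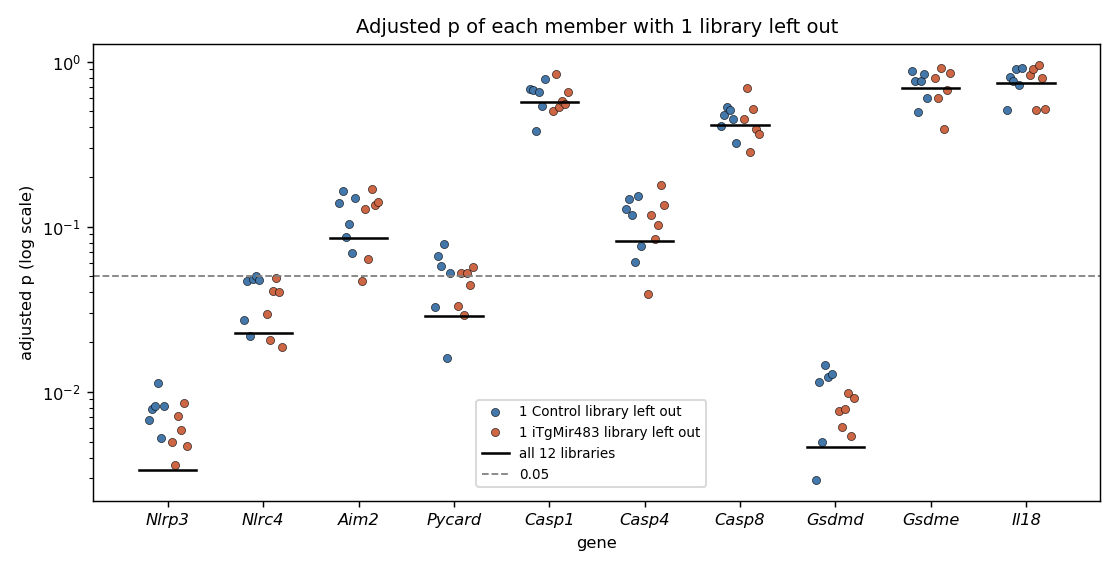
Adjusted p (edgeR quasi-likelihood test, log scale) of each gene when 1 Control (blue) or 1 iTgMir483 (orange) library was left out, with a bar for the fit of all 12 libraries and a dashed line at 0.05. All points of Nlrp3 and Gsdmd lie below the line, those of Pycard lie on both sides, and those of Casp1, Casp8, Gsdme and Il18 all lie far above it.

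Levels of different genes were compared per length, as CPM per kilobase of all annotated exons of the gene joined. This length, 12742 bases for Gsdme and 1031 for Il18, can exceed that of a single transcript, so the order depends on the annotation. In Control the order of these levels was Casp8 (11.1 ± 0.75), Gsdmd (10.3 ± 1.91) and Il18 (7.52 ± 1.25), then Casp1 (1.75 ± 0.35), Aim2 (0.523 ± 0.17), Casp4 (0.433 ± 0.13), Nlrp3 (0.381 ± 0.044), Pycard (0.274 ± 0.076), Nlrc4 (0.141 ± 0.042) and Gsdme (0.134 ± 0.041), each as mean ± SD with n = 6. Casp8, Gsdmd and Il18 overlapped their neighbours in this order over the 6 libraries, and all 3 lay above Casp1 in every Control liver. Casp1 lay above Aim2 in every Control liver, and from Aim2 to Pycard each gene overlapped the next. Pycard lay barely above Nlrc4 (lowest 0.207 against highest 0.203), and Nlrc4 and Gsdme overlapped. In iTgMir483 the levels per length of Gsdmd (16.1 ± 2.45) and Casp8 (10.1 ± 1.68) changed places and no longer overlapped, and Nlrp3 (0.710 ± 0.14) ranked above Casp4 (0.674 ± 0.19) with overlapping values. The transcripts of the pore former, an upstream caspase and the cytokine were thus the abundant ones in whole liver, and those of the sensors, ASC, Casp4 and Gsdme the scarce ones, in both groups.

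**Figure D3:**
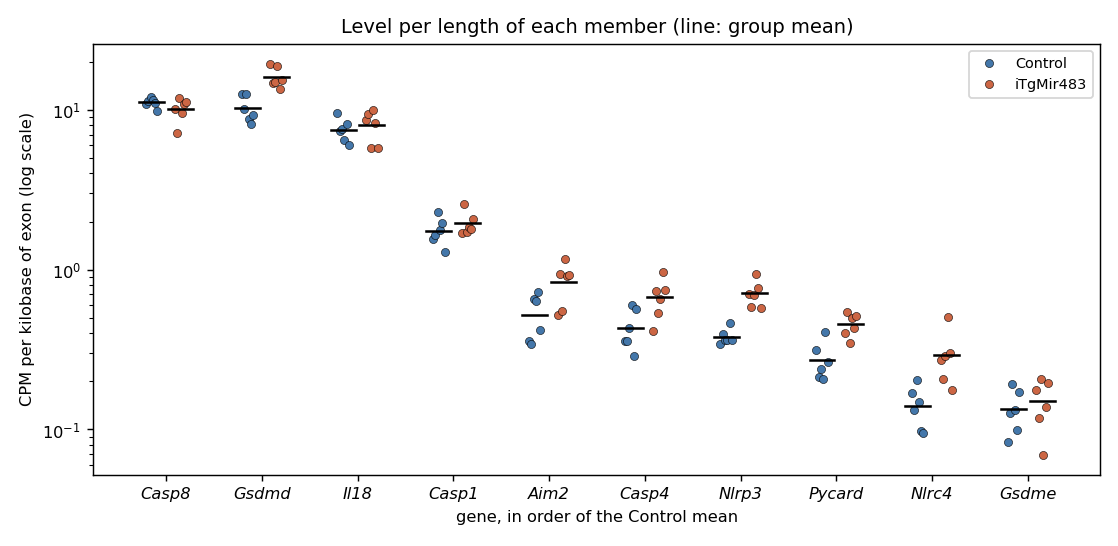
Level of each gene in CPM per kilobase of exon (log scale) in the 6 Control (blue) and 6 iTgMir483 (orange) libraries, ordered by the Control mean, with a line at each group mean. Casp8, Gsdmd and Il18 lie between 5.76 and 19.5, Casp1 between 1.28 and 2.57, and the other 6 genes below 1.18.

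Values of marker genes moved with the same groups. The summed level of 7 Kupffer cell markers was 277 to 405 CPM in Control and 424 to 1231 CPM in iTgMir483, without overlap, and 6 of the 7 were called higher (Adgre1, Clec4f, Cd5l, Timd4, Marco and Csf1r). The highest sum, 1231 CPM, was that of replicate 4, the library with the highest value of the 12 for 4 of the members. The sum of 6 neutrophil markers was 3.33 to 5.86 CPM in Control and 7.02 to 25.6 CPM in iTgMir483, with 3 of the 3 tested called higher, while their defining gene Ly6g had 2 counts in 1 library and 0 in all others. Markers of recruited macrophages and monocytes summed to 8.41 to 18.8 CPM and 17.1 to 19.7 CPM, with 2 of 4 tested higher (Itgax and Trem2). Most of that sum was Cd9 (mean 9.19 CPM in Control and 11.2 CPM in iTgMir483), which did not pass (1.22-fold, adjusted p = 0.290). Ccr2 went the other way without passing (0.67-fold, 0.46 to 0.96, adjusted p = 0.108), with 4 of 6 iTgMir483 livers below all controls. Cd9 and Ccr2 were named after their values were seen. Those of cholangiocytes summed to 4.75 to 8.09 CPM and 7.11 to 13.9 CPM, with 2 of 4 higher.

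For the other cell types none of the tested markers was called, but most lymphocyte markers were too low to be tested. T and NK cell markers, of which 1 of 6 was tested, summed to 2.89 to 4.18 CPM in Control and 1.88 to 2.78 CPM in iTgMir483, lower and without overlap. Their untested marker Cd3g was below all controls in 6 of 6 iTgMir483 livers. For the other markers of this list that held in 0 (Nkg7) to 3 (Trac) livers. The mean of Nkg7 went the other way (0.507 CPM in Control and 0.612 CPM in iTgMir483). Cd3g, Nkg7 and Trac were named after their values were seen. B cell markers, of which 2 of 3 were tested, summed to 1.92 to 5.69 CPM and 1.53 to 3.28 CPM. Hepatocyte markers summed to 119920 to 164237 CPM and 61357 to 131018 CPM. Most of that sum was Alb (mean 111914 CPM in Control and 76071 CPM in iTgMir483), which did not pass (0.68-fold, adjusted p = 0.160). The folds of the other hepatocyte markers ran from 0.62 (Tat) to 1.14 (Apoa1). Alb, Tat and Apoa1 were named after their values were seen. Markers of sinusoidal endothelium summed to 208 to 241 CPM and 177 to 241 CPM, and those of stellate cells to 289 to 389 CPM and 325 to 403 CPM. No marker in any list was at 0 in all libraries. Relative to the Control mean, the Kupffer sum of the iTgMir483 livers was 1.27 to 3.68, Nlrp3 was 1.5 to 2.47, Nlrc4 1.26 to 3.57, Pycard 1.27 to 1.99 and Gsdmd 1.31 to 1.90. The part of these cells in the results on the 4 members was not tested. Without replicate 4 of iTgMir483, the log2 fold change was 0.80 for Nlrp3 (adjusted p = 0.00584), 0.60 for Gsdmd (0.00977), 0.81 for Nlrc4 (0.0489) and 0.71 for Pycard (0.0525).

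**Figure D4:**
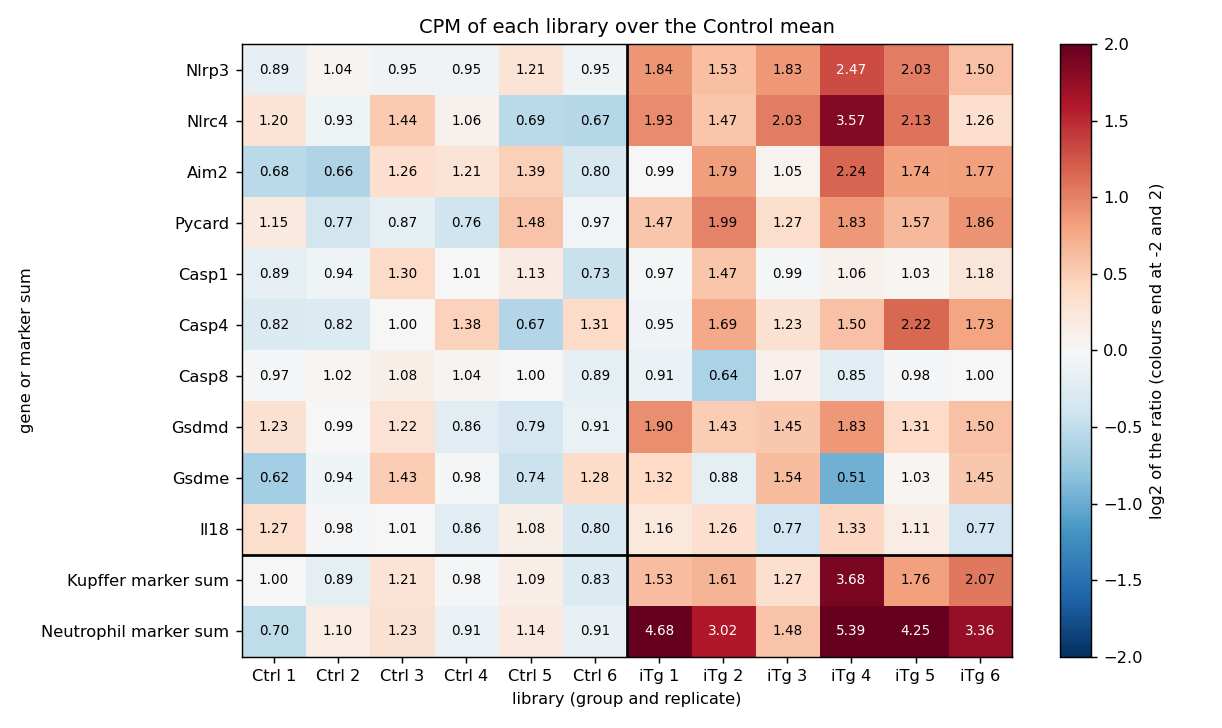
CPM of each library divided by the mean of the 6 Control libraries, for the 10 genes and for the summed Kupffer cell and neutrophil markers (numbers in the cells; colour is the log2 of the ratio, ending at -2 and 2). Replicate 4 of iTgMir483 has the highest ratio of its row for Nlrp3 (2.47), Nlrc4 (3.57), Aim2 (2.24) and Il18 (1.33). It also has the highest for the Kupffer sum (3.68) and the neutrophil sum (5.39), and the lowest for Gsdme (0.51).

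The 10 genes were set beside 51 further genes of the pathway, listed by role. Of these, 40 passed the filter on low counts. Of the 40, 13 (32.5%) were higher and 3 were lower, beside 8.41% and 2.73% of all tested genes. The median log2 fold change of the 40 was 0.51. Of them, 4 did not overlap upward and 1 downward (672 or 5.09% and 374 or 2.83% of all tested genes). The counts by role rest on few genes each, and the share higher among priming and activation genes, 9.09%, was near that of all tested genes. Of 9 tested further sensors 6 were higher and 1 lower, of 11 priming and activation genes 1 and 1, of 3 other caspases 1 and 0, of 6 partners of caspase-8 and of necroptosis 2 and 0, of 5 cytokines and receptors 1 and 1, and of 5 inhibitors 2 and 0. When the fold was tested against 1.5, Zbp1 and Casp6 remained of the 13 and 0 of the 3. The count of 13 fell to 6 without replicate 4 of iTgMir483, the library with the highest Kupffer sum, and to 7, 8, 7 and 8 without Control replicates 2, 4, 5 and 6. The count of 3 lower genes was 0 without replicate 2 of iTgMir483 and 1 without Control replicates 2, 3, 4, 5 or 6 or iTgMir483 replicates 3, 5 or 6.

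The further sensors that rose included Nlrp1b (2.63-fold, adjusted p = 0.00498), a sensor of bacterial proteases, with 0.366 to 1.25 CPM in Control and 1.63 to 3.96 CPM in iTgMir483 without overlap. Zbp1, a sensor of Z-form nucleic acid, rose 3.22-fold (0.00395), from 1.65 to 4.46 CPM to 3.88 to 19.8 CPM. Of 4 NAIP genes, whose products hand bacterial ligands to NLRC4, 3 rose, Naip2 by 1.6-fold (0.00889), Naip5 by 2.13-fold (0.0110) and Naip6 by 1.84-fold (0.0393). Naip1 did not pass (1.49-fold, 0.82 to 2.71, adjusted p = 0.338, chosen after its values were seen), and 1 iTgMir483 liver lay below all controls. These genes are close paralogs, and how reads shared between them were counted leaves the values of single NAIP genes uncertain. Mefv, which encodes pyrin, was higher at 3.16-fold (0.0491) but spread from 0.720 to 10.8 CPM within iTgMir483. Nlrp12, known as a restrainer of inflammatory signalling, fell to 0.41-fold (0.0437), from 42.9 to 156 CPM in Control to 6.77 to 76.9 CPM. With 1 library left out at a time, the calls were made in 12 of 12 fits for Nlrp1b, Naip5 and Zbp1, in 11 for Naip2, in 4 for Naip6 and in 3 each for Mefv and Nlrp12.

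Among the genes of priming and activation, Gbp7, an interferon-induced GTPase, was higher at 1.62-fold (adjusted p = 0.0339, called in 5 of 12 fits that left out 1 library). Txnip, a thioredoxin inhibitor that binds NLRP3, was lower at 0.51-fold (0.0424), with Control values from 112 to 540 CPM and iTgMir483 values from 117 to 278 CPM that lay inside that range, and was called in 2 of 12. Among the further genes, the 3p match in the UTR, present in 12.6% of tested genes, was found in Txnip, Ripk1 and Cflar. Txnip was called, while Cflar, which like Txnip held 2 matches (0.97-fold, adjusted p = 0.793), and Ripk1 (0.98-fold, 0.910) did not pass. An action of the microRNA on Txnip was not tested. Myd88, the adaptor of Toll-like receptors, passed the adjusted p but not the fold (1.22-fold, 0.0389, chosen after its values were seen).

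Of the caspase genes described here, Casp6 had the largest fold change. Casp6, an executioner caspase known in the liver for hepatocyte death in steatohepatitis, rose 2.88-fold (95% interval 2.34 to 3.55, adjusted p = 2.1e-05) from 21.3, 25.5 and 32.1 CPM at the lowest, median and highest Control to 56.9, 78.3 and 91.4 CPM in iTgMir483. The lowest iTgMir483 liver lay above the highest Control liver, and the call held in 12 of 12 fits that left out 1 library. Of the necroptosis genes, the kinase gene Ripk3 rose 1.82-fold (0.0351) and Mlkl, its pore-forming target, 1.54-fold (0.0252), each called in 6 of 12 fits that left out 1 library.

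The other gasdermin genes had no reads. Gsdma, Gsdma2, Gsdma3, Gsdmc, Gsdmc2, Gsdmc3 and Gsdmc4 had 0 counts in all 12 libraries. Taken alone, a library with 0 counts allows up to 3 expected reads, a looser limit than the 12 libraries give together. Gsdmd and Gsdme were thus the gasdermin genes of the lists with reads. Ninj1, whose product ruptures the membrane after the pore has formed, was at 93.2 ± 15.9 CPM in Control and 110.6 ± 17.0 CPM in iTgMir483 (SD, n = 6) and did not pass (1.19-fold, 0.98 to 1.44, adjusted p = 0.193).

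The cytokines of the pathway gave different values. Il1b, the precursor of IL-1β, rose 3.08-fold (1.53 to 6.20, adjusted p = 0.0277), with 1.03, 1.87 and 4.18 CPM in Control and 1.94, 5.21 and 16.6 CPM in iTgMir483, and 4 of 6 livers above all controls. Il18 was 1.06-fold, as given above, and the intervals of these folds do not overlap. On the receiving side, Il1rap, the shared accessory chain of the IL-1 receptor, fell to 0.66-fold (0.53 to 0.81, 0.00863), from 101 to 171 CPM in Control to 62.3 to 96.8 CPM in iTgMir483 without overlap. Il18bp, the secreted decoy that neutralises IL-18, rose 1.80-fold (1.29 to 2.51, 0.0174) and was called in 12 of 12 fits that left out 1 library, against 8 for Il1b and 9 for Il1rap. Trim30a, an inhibitor of NLRP3 activation, rose 1.51-fold (0.0246, 8 of 12).

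**Figure D5:**
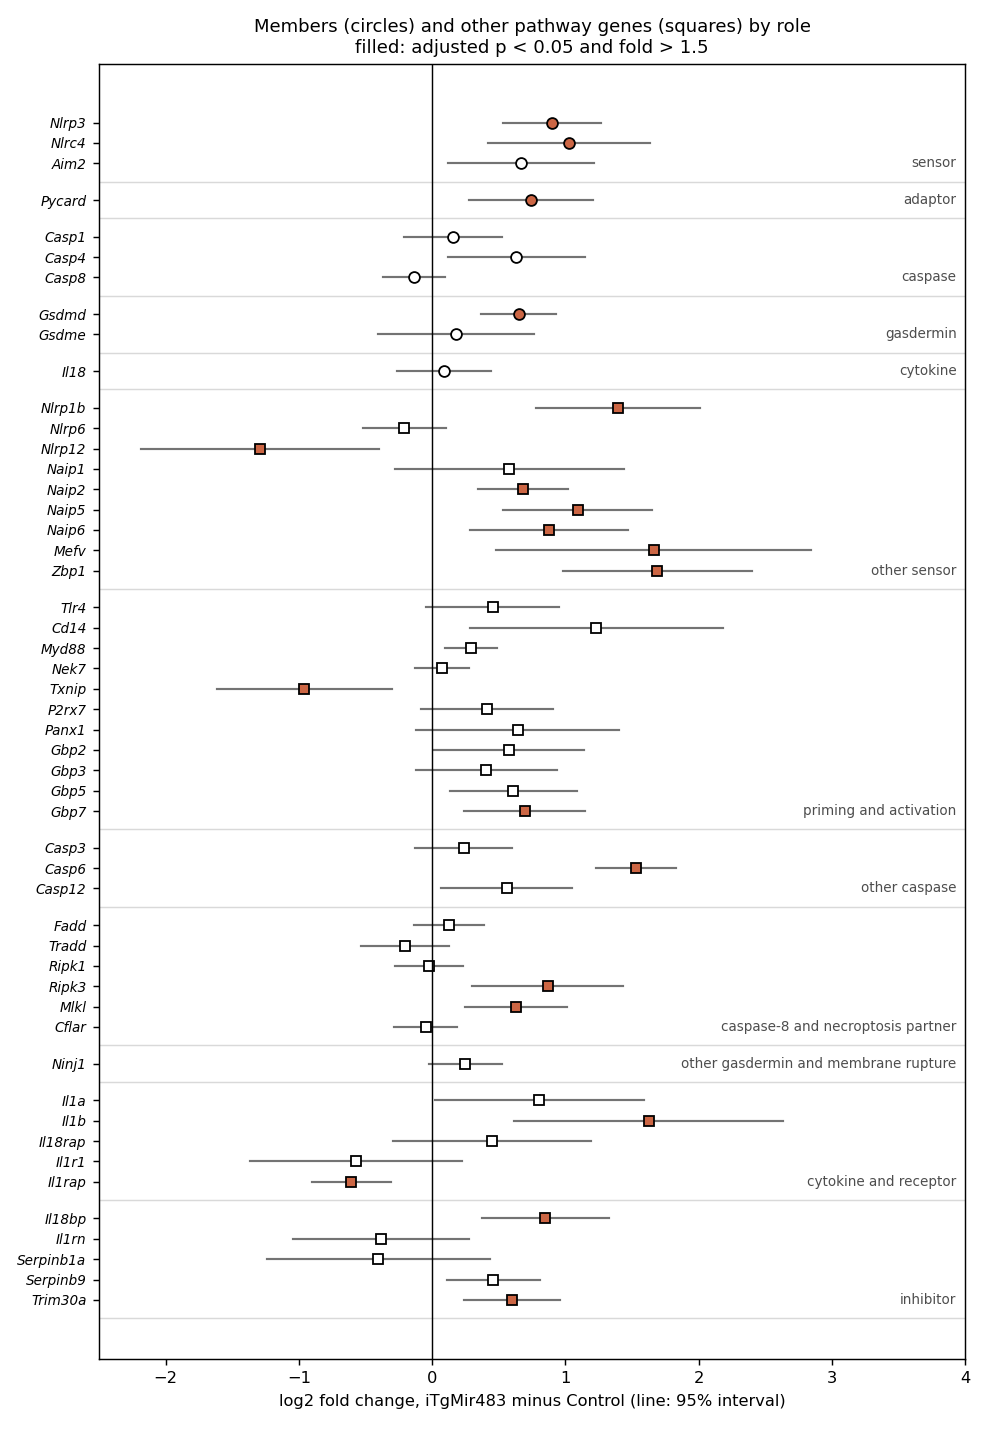
Log2 fold change of iTgMir483 over Control with its 95% interval (horizontal axis) for the 10 members (circles) and the 40 tested pathway genes (squares), grouped by role; filled symbols passed an adjusted p of 0.05 and a fold of 1.5. Filled symbols to the right of 0 are 4 members and 13 pathway genes, 6 of them further sensors, and those to the left are Nlrp12, Txnip and Il1rap.

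Annotated genes overlap 6 of the members, namely Nlrc4, Aim2, Pycard, Casp8, Gsdme and Il18. Those of Aim2, Pycard, Gsdme and Il18 lie on the other strand. Which strand was counted is not given in the sources used here, so reads of these neighbours could not be told apart from theirs. Those of Nlrc4 (the pseudogene CT033749.1, 59 reads in all against 193 for Nlrc4) and Casp8 (Gm37760, 46 against 5908) lie on the same strand. For these the strand does not separate the reads. The overlapping genes on the other strand of Aim2 and Il18 had up to 4275 reads (Bco2, beside Il18). Nlrp3, Casp1, Casp4 and Gsdmd had no overlapping gene.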

How the data were processed

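Per the labels and the study's methods, the authors made stranded poly(A) libraries from liver RNA, multiplexed them and sequenced them as paired-end reads. The reads were aligned to GRCm38 with STAR, and raw gene counts with Ensembl identifiers were deposited. The strand column and the handling of shared reads are not given in the sources used here. Groups and replicate numbers come from the sample titles. The table held 55401 genes, 0 rows without a gene and 0 columns of no sample. GENCODE M21 (GRCm38, another release) gave symbols for 55141 identifiers and none for 260. Counts were filtered with filterByExpr, which left 13205 genes, scaled by TMM and fitted in R 4.3.3 with edgeR 4.0.16 (limma 3.58.1), 6 against 6 without covariates, by its quasi-likelihood test. P-values were adjusted by Benjamini-Hochberg over all tested genes. CPM is the count scaled by the TMM library size. Each SE was obtained from the log2 fold change and its F value. The scripts were tested on simulated data.

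The members and lists were chosen with earlier results of these data known. Named are all members, every pathway gene called, and Ninj1, the gene with most counts in a role without a call; other names are marked. A further gene of the pathway is not reported here. RefSeq (GRCm38.p6) gave microRNAs and promoters. The longest 3′ UTR of basic protein-coding transcripts was searched for the 7-base seed match. The NF-kB motif has 10 letters. Alternatives were RLE scaling, 2 other filters, DESeq2 1.42.0, limma-voom, a test against a fold of 1.5, adjusted p alone, the replicate block, leaving out each library, and leaving out both replicate 1 libraries. No pair of libraries agreed within sampling noise (smallest chi-square per gene 15.7). Library depth limits the scarce members most, and reads carry no molecular identifiers.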

Additional observations from a re-analysis of the deposited data

Results flagged for a closer look

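None of the 10 members had a liver that stood apart from its group by Dixon's test. Among 71 groups of 6 values examined, 9 passed it at the 95% level, and about 3.55 (1 in 20) would do so by chance. In replicate 4 of iTgMir483 these were Nlrp1b (gap over range 0.76, 3.96 CPM against 1.63 to 2.18 CPM in the others), Naip2 (0.634, 16.9 against 8.34 to 11.5 CPM), Mefv (0.632, 10.8 against 0.720 to 4.45 CPM), Il18bp (0.637, 49.2 against 14.9 to 27.3 CPM), Trim30a (0.65, 12.5 against 6.28 to 8.44 CPM) and the Kupffer cell marker sum (0.667, 1231 against 424 to 693 CPM). Without that library 6 pathway genes were called higher in place of 13. Il1b stood apart in replicate 2 of iTgMir483 (0.752, 16.6 against 1.94 to 5.57 CPM). In Control, Il1rap stood apart in replicate 1 (0.792, 170.7 against 100.6 to 115.2 CPM) and the stellate cell marker sum in replicate 5 (0.64, 389.3 against 288.8 to 325.0 CPM).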

How the results depend on the processing

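Of the 4 members called higher, Nlrp3 and Gsdmd were called in 19 of 19 alternatives that gave a single-gene value (adjusted p 0.000336 to 0.0113 and 0.000201 to 0.0145), Nlrc4 in 16 of 18 (up to 0.0522) and Pycard in 10 of 19 (0.0161 to 0.0919). Nlrc4 could not be fitted with at least 10 counts in every library, since it falls below that. No member changed direction. With no filter beyond 1 count, 2 members were higher (Nlrp3 and Gsdmd). Tested against a fold of 1.5, 0 members and 2 pathway genes were higher, 0 pathway genes were lower and 226 genes were called in all, and with the adjusted p alone 2457 genes were called. Leaving out 1 library, members higher ranged from 3 to 6, pathway genes higher from 6 to 15 and pathway genes lower from 0 to 3. The counts of pathway genes higher moved by over 1.5 times without Control replicates 2 (7), 4 (8), 5 (7) or 6 (8) or iTgMir483 replicate 4 (6), and that of pathway genes lower was 0 without iTgMir483 replicate 2. Same-numbered libraries deviated together over 0.1 in 2 of 6 pairs (0.0252 to 0.47, the highest in replicate 1). Of the libraries, 2 Control and 1 iTgMir483 correlated best with their own number. The titles do not say that equal numbers pair mice, and these correlations cannot tell whether some pairs shared a litter or a batch. With the replicate block 3 members and 11 pathway genes were higher, Pycard missing at an adjusted p of 0.0577 (log2 fold change 0.75). No pathway gene that was called changed direction. The permutation test for members under the filter was not run because none was. Nlrc4 and Pycard had the fewest reads of the members (193 and 252 in all).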
